A study of Mus musculus with 12 samples.

Results

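miR-101 is a small microRNA family that is deeply conserved among vertebrates. Its mouse names are the 2 arms of the miR-101a hairpin (miR-101a-3p and miR-101a-5p), the 2 arms of the miR-101b hairpin (miR-101b-3p and miR-101b-5p) and miR-101c. They were looked up by name in a table of 1652 mature miRNA names. Of the 5 names sought, 4 had values, and miR-101c was not analysed here. The family was chosen by its measured rise between the ages, which was already known, so the change with age is given below as a description with no test.

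The kidney libraries came from untreated wild-type (WT) mice at postnatal day 8 (6 libraries) and at postnatal day 0 (6 libraries). The study looked for miRNAs that change in this period and could act on the mineralocorticoid receptor (MR), encoded by Nr3c2. The sources used here give no strain, sex or litter, and do not say whether each library is a different mouse. Any p-value therefore measures only the spread between these samples, which may be technical. Replicate numbers only name the libraries.

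A microRNA guides an Argonaute protein to messenger RNAs that pair with its seed, bases 2 to 8 counted from the 5′ end, and lowers the output of those messages. In most hairpins one arm is kept as the guide and the other is largely degraded. miR-101 is best known as a repressor of Ezh2, the methyltransferase of polycomb repressive complex 2, a link first drawn in human tumours in which miR-101 is lost. New nephrons form in the mouse kidney until shortly after birth, and Ezh2 is known to support the dividing nephron progenitors. No messenger RNA was measured here, so Ezh2 itself has no value.

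The mature sequences of the 3p names, from RefSeq on GRCm38.p6, are shown because the names differ in their first base, and so in their seed. Capitals mark the seed.
miR-101a-3p: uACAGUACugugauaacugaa
miR-101b-3p: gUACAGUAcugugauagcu
miR-101c: aCAGUACUgugauaacuga
The listed miR-101b-3p begins 1 base before miR-101a-3p. Over the 18 bases that both cover, 17 were the same, and the single difference was A16G, with positions counted from the 5′ end of miR-101a-3p and the miR-101a-3p base given first. All 19 bases of miR-101c lie within miR-101a-3p, at its positions 2 to 20. A read of that length could be assigned to either name, and the sources used here do not say how the authors did so. The division of reads among these near-identical names is therefore uncertain. The 3 seeds are the same stretch of letters read in 3 registers. The table counts names only, so the first base of the reads behind each name cannot be seen.

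The 5p arms have their own sequences, again with the seed in capitals.
miR-101a-5p: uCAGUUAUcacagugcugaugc
miR-101b-5p: uCGGUUAUcaugguaccgaugcu
They matched at 17 of the first 22 positions, and 1 of the differences, A3G, lies in the seed, with positions counted from the 5′ end and the miR-101a-5p base first.

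The hairpins lie at separate places. The Mir101a hairpin is at chr4:101346945-101347027 on the minus strand (GRCm38), inside an exon of the long non-coding gene E130102H24Rik on the same strand. The Mir101b hairpin is at chr19:29135279-29135375 on the plus strand, in an intron of the protein-coding gene Rcl1 on the same strand, which encodes a ribosome biogenesis factor. The annotation has Mir101c at chr9:3038669-3038743 on the minus strand, in no other annotated gene.

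The libraries held 5157265 to 11782109 miRNA reads at day 8 and 3372228 to 9046292 at day 0. Values are CPM, reads of a name scaled to a library total of 1000000 miRNA reads, so a difference is one of share. A log2 change is the day 8 mean minus the day 0 mean of log2(CPM + 1). That scale understates the change of low names. Over the 564 names with at least 1 CPM in at least 6 libraries the median log2 change was -0.34, and it was 0.00 after CPM was divided by TMM factors, scaling factors that centre the bulk of names. In whole kidney, fewer cells of a type and less RNA per cell cannot be told apart.

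The 3p arms made up nearly all of the family, and both were higher at day 8. miR-101a-3p, the main guide strand of the family, lay between 1653 and 2608 CPM at day 8 (median 2045) and between 825 and 1026 CPM at day 0 (median 922). The groups did not overlap, and the lowest day 8 library stood 1.61-fold above the highest day 0 library. Its mean was 2051 ± 369 CPM at day 8 and 928 ± 88.9 CPM at day 0 (SD, n = 6 each), 2.21 times as high at day 8. The log2 change was 1.13 (SE 0.115). Day 8 replicate 2 was the highest of its age and replicate 4 the lowest. Behind these values lay 8862 to 26254 reads per library at day 8 and 3268 to 8625 at day 0.

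miR-101b-3p, made from the Rcl1 intron, was about an order of magnitude less abundant. It lay between 164 and 268 CPM at day 8 (median 217) and between 64.6 and 89.5 CPM at day 0 (median 79.2). Again the groups did not overlap, with the lowest day 8 library 1.83-fold above the highest day 0 library. The mean was 219 ± 34.9 CPM at day 8 and 77.7 ± 9.69 CPM at day 0 (SD, n = 6 each), 2.81 times as high at day 8. The log2 change was 1.47 (SE 0.125). Its highest and lowest day 8 libraries were the same replicates, 2 and 4, as for miR-101a-3p.

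The 5p arms were rare. miR-101a-5p lay between 3.26 and 5.26 CPM at day 8 (median 4.88) and between 1.87 and 3.62 CPM at day 0 (median 2.85). Day 8 was above day 0 in 33 of the 36 pairs of libraries, so the groups overlapped, through day 8 replicate 4. The log2 change was 0.58 (SE 0.155), and the ratio of means was 1.65, from 24 to 62 reads per library at day 8 and 11 to 30 at day 0. miR-101b-5p lay between 0.582 and 1.08 CPM at day 8 (median 0.892) and between 0.472 and 2.27 CPM at day 0 (median 1.06), with day 8 higher in 13 of 36 pairs. It rested on 3 to 12 reads per library at day 8 and 3 to 18 at day 0, and it did not reach the level needed for the fit. Its mean log2(CPM + 1) changed by -0.17, within the spread of the libraries, and a change was not detectable at this depth.

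**Figure D1:**
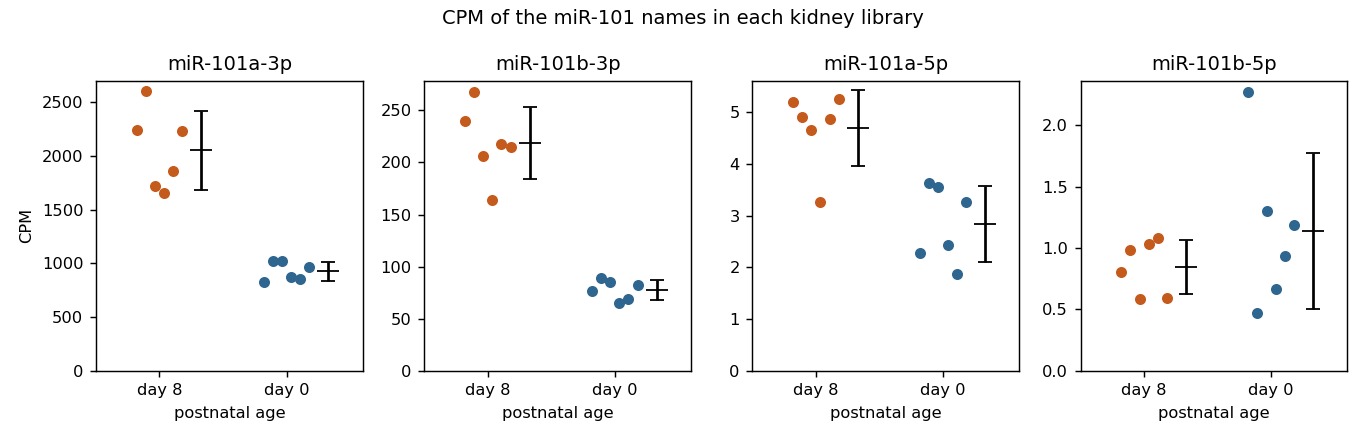
CPM of the 4 miR-101 names in each library, with a panel and a linear axis from 0 for each name, day 8 left of day 0; points are libraries and bars show the mean ± SD (n = 6 each). The 3p names separate the ages, with miR-101a-3p at 1653 CPM or more at day 8 and at most 1026 CPM at day 0, while the 5p names overlap.

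For miR-101a-3p and miR-101b-3p, of the 4 names with values, every day 8 library lay above every day 0 library. The same was true of 61 of the 564 names tested, or 10.8%. This is the contrast the family was chosen on, so the count is not read against that share. A larger rise than that of miR-101b-3p was found for 10 of the 564 names, and than that of miR-101a-3p for 18. Dividing CPM by TMM factors (0.824 to 0.926 at day 8 and 1.09 to 1.18 at day 0) raised the folds to 2.91 for miR-101a-3p, 3.69 for miR-101b-3p and 2.17 for miR-101a-5p.

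**Figure D2:**
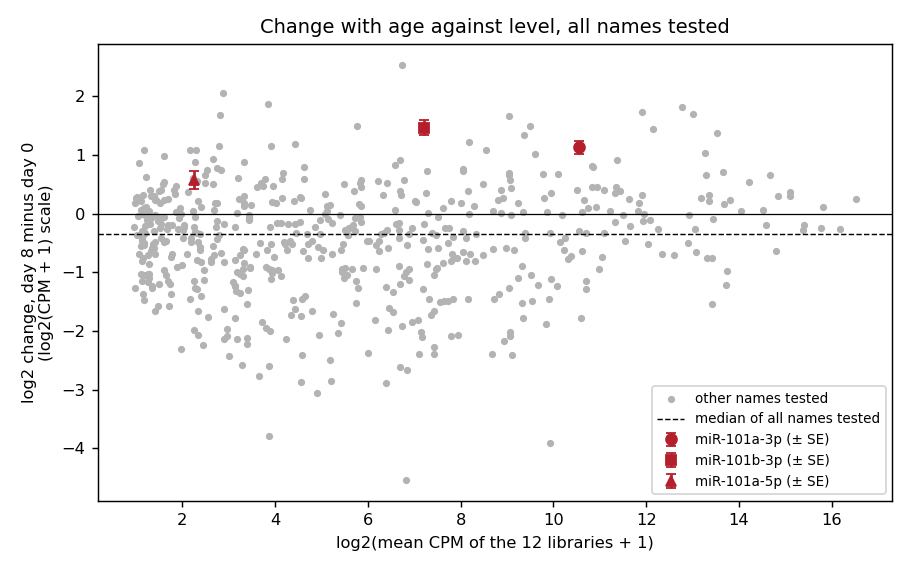
Log2 change, day 8 minus day 0, against log2(mean CPM + 1) for all 564 names tested; red marks are miR-101 names with their SE, grey points other names, and the dashed line the median of all names (-0.34). miR-101b-3p (1.47) and miR-101a-3p (1.13) lie near the upper edge at middle and high levels, and miR-101a-5p (0.58) lies among rare names.

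The summed 3p names took 0.227 ± 0.0400% of all miRNA reads at day 8 and 0.101 ± 0.00971% at day 0 (SD, n = 6 each). In CPM the sum was 2270 ± 400 at day 8 and 1006 ± 97.1 at day 0. By mean CPM, miR-101a-3p held place 64 at day 8 and place 95 at day 0, and miR-101b-3p held place 142 at day 8 and place 232 at day 0. These places are shared within error. At day 8 the neighbours of miR-101a-3p were miR-23a-3p (2104 ± 144 CPM) and miR-221-3p (2003 ± 197 CPM), each above it in 3 of 6 libraries. At day 0 they were miR-205-5p (949 ± 193 CPM) and miR-541-5p (918 ± 146 CPM), also each above it in 3 of 6. The neighbours of miR-101b-3p were miR-434-5p (223 ± 19.7 CPM) and miR-135a-5p (215 ± 55.8 CPM) at day 8, and miR-376a-3p (78.8 ± 23.2 CPM) and miR-345-3p (76.9 ± 6.29 CPM) at day 0. Each was above it in 2 or 3 of 6 libraries.

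Within a library, miR-101b-3p was always the rarer of the 3p names. The log2 ratio of miR-101b-3p to miR-101a-3p was -3.22 ± 0.127 at day 8, with libraries from -3.37 to -3.05, and -3.57 ± 0.109 at day 0, from -3.74 to -3.42 (SD, n = 6 each). A two-sided exact sign-flip permutation test of the mean ratio against 0 gave p = 0.03125 at each age, the smallest that 64 sign patterns allow. Reads are not equally well captured from every miRNA, so this is a ratio of reads and not of molecules. As a description, miR-101b-3p made up 9.67 ± 0.778% of the summed 3p names at day 8 and 7.72 ± 0.537% at day 0. The day 8 libraries ran from 8.81 to 10.7% and the day 0 libraries from 6.87 to 8.46%, with no overlap.

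The correlation of the 3p names was positive at both ages, and which ages passed depended on the measure and the scaling. The difference between the ages was not tested. A passing p is against no correlation only, and does not mark this pair out. Once each age's mean was subtracted, miR-141-3p (r = 0.907) lay closer to miR-101a-3p than miR-101b-3p did (r = 0.840). Whether reads divided between near-identical names add to r was not tested. At day 8 the Pearson correlation of log2(CPM + 1) was 0.87 (n = 6, exact permutation p = 0.0181, Benjamini-Hochberg adjusted p = 0.0361 over the 2 ages). Spearman's rho at day 8 was 0.94 (exact permutation p = 0.0167, adjusted p = 0.0333). At day 0 the Pearson correlation was 0.80 (n = 6, exact permutation p = 0.0806, adjusted p = 0.0806) and Spearman's rho 0.77 (exact permutation p = 0.103, adjusted p = 0.103), which did not pass. Without the 2 libraries farthest from the median of miR-101a-3p, r was 0.71 at day 8 and 0.94 at day 0 (n = 4 each). At 0.71 the exact permutation p was 0.292, but 4 libraries leave little room to pass, so this does not show which libraries the day 8 call rests on. After division by TMM factors r was 0.89 at day 8 (exact permutation adjusted p = 0.0278) and 0.83 at day 0 (exact permutation adjusted p = 0.0306), while Spearman's rho no longer passed at day 8 and did not pass at day 0 (exact permutation adjusted p = 0.0583 each).

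On average the 5p arm took a larger share of the reads of miR-101b than of miR-101a, though from few 5p reads. As a difference of log2(CPM + 1), the log2 ratio of miR-101a-3p to miR-101a-5p was 8.49 ± 0.196 at day 8 and 7.94 ± 0.160 at day 0 (SD, n = 6 each). For miR-101b the log2 ratio of 3p to 5p on that scale was 6.89 ± 0.301 at day 8 and 5.24 ± 0.439 at day 0. Adding 1 CPM lowers the ratio for so rare a 5p arm, and with 0.1 CPM added it was 7.87 at day 8 and 6.11 at day 0. The shares below use reads with nothing added. With 1 CPM added, both ratios were above the day 0 range in every day 8 library, a description on the same contrast. The 5p arm took 0.230 ± 0.0331% of the reads of the miR-101a arms at day 8 and 0.301 ± 0.0525% at day 0. For miR-101b that share was 0.395 ± 0.137% at day 8 and 1.45 ± 0.793% at day 0. With nothing added, the ages overlapped for both hairpins. For miR-101a the share ran from 0.188 to 0.27% at day 8 and from 0.219 to 0.351% at day 0. For miR-101b it ran from 0.275 to 0.624% at day 8. At day 0 it ran from 0.524% in replicate 2 (3 of 572 reads, 95% Wilson interval 0.179 to 1.53%) to 2.89% in replicate 1 (18 of 622 reads, 1.84 to 4.53%). Such intervals cover counting error only. At day 8 those of the hairpins overlapped within every library but replicate 4, and at day 0 within replicates 2 and 6 only.

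**Figure D3:**
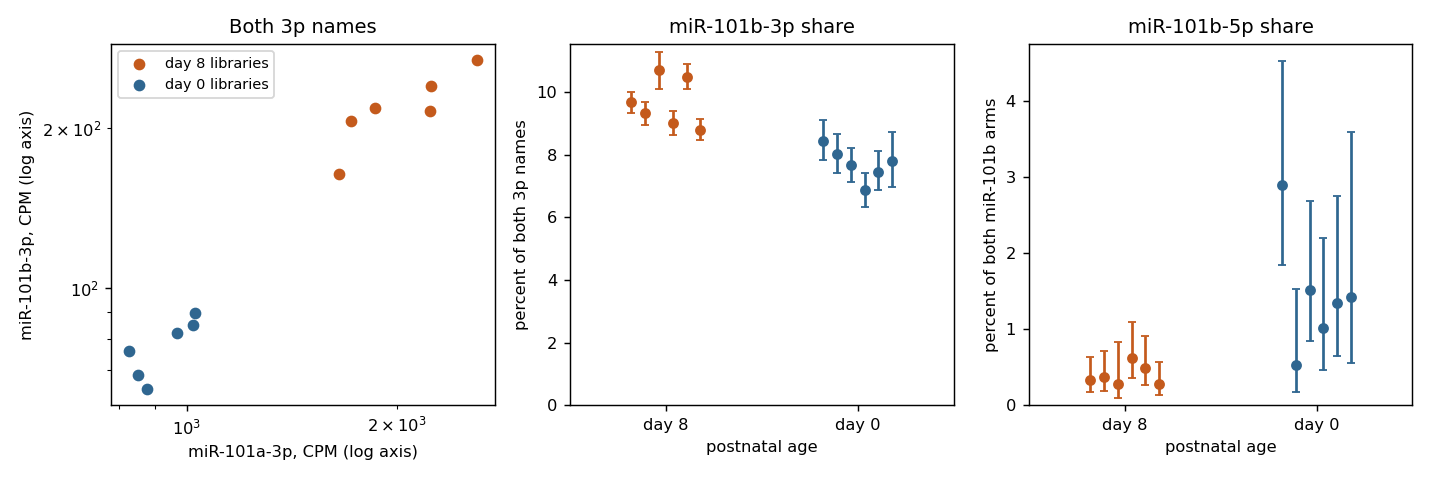
Left, miR-101b-3p against miR-101a-3p in CPM on log axes, 1 point per library; middle, the share of miR-101b-3p in both 3p names; right, the share of miR-101b-5p in both miR-101b arms, with 95% Wilson intervals and day 8 left of day 0. Both 3p names are higher in the day 8 libraries, the contrast they were chosen on. The miR-101b-3p share is 8.81% or more at day 8 and at most 8.46% at day 0. The miR-101b-5p share spreads from 0.524 to 2.89% at day 0.

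The names most like the 3p names over the 12 libraries included several miRNAs known from epithelium and kidney tubules. Likeness was Pearson's r of log2(CPM + 1), compared over 214 other names with a mean CPM of at least 100. It is a description over libraries that share their totals, and it includes the gap between the ages. For miR-101a-3p the closest was miR-101b-3p (r = 0.985). Next came the epithelial miR-200a-3p (r = 0.982), miR-192-5p, a miRNA abundant in kidney tubules (r = 0.975), miR-802-5p (r = 0.972) and miR-30e-5p of the miR-30 family (r = 0.968). For miR-101b-3p they were miR-192-5p and miR-200a-3p (r = 0.990 each), miR-101a-3p (0.985), miR-194-5p, which shares hairpin clusters with miR-192 (0.976), and miR-802-5p (0.971).

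With each age's mean subtracted, other names came forward. For miR-101a-3p they were miR-141-3p of the miR-200 family (r = 0.907), miR-455-5p (0.876), miR-148a-3p (0.872), miR-542-3p (0.870) and the endothelial miR-126a-5p (0.842), and miR-101b-3p stood in place 6 (0.840). For miR-101b-3p they were miR-32-5p (r = 0.875), miR-455-5p (0.867), miR-192-5p (0.853), miR-101a-3p (0.840) and miR-200a-3p (0.830). miR-542-3p, which tracked miR-101a-3p within an age, had r = -0.388 with it when the ages were not centred.

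Seed letters are shared with a few other miRNAs. A match of at least 6 letters of the seed of a 3p name, in the same register or shifted by 1 base, was found for 3 names, each of which passed the filter.
miR-144-3p: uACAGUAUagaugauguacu
miR-582-5p: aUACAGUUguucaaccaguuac
miR-139-5p: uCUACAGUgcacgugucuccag
miR-144-3p is an erythroid miRNA made beside miR-451a. It stood at 317 ± 114 CPM at day 8 and 256 ± 134 CPM at day 0 (SD, n = 6 each), with a change of 0.39 on the log2 scale (limma adjusted p = 0.329) and overlapping libraries. miR-582-5p rose, with 8.52 ± 2.24 CPM at day 8 and 3.27 ± 0.829 CPM at day 0, a change of 1.15 on the log2 scale (limma adjusted p = 5.12e-05) with no overlap. miR-139-5p stood at 140 ± 35.5 CPM at day 8 and 154 ± 6.88 CPM at day 0, a change of -0.18 (limma adjusted p = 0.296) that was 0.21 with TMM factors. At both ages miR-101a-3p alone exceeded the sum of the 3 names, which ran from 359.7 to 582.9 CPM at day 8 and from 276.8 to 592 CPM at day 0.

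Other miRNAs reported to target Ezh2 were called higher and lower at shares near those of all names. The list held miR-26a-5p, miR-26b-5p, miR-98-5p, miR-124-3p, miR-137-3p, miR-138-5p, miR-214-3p, miR-217-5p and 8 let-7 names, and values of several were known when it was drawn up. Of 14 tested members, 2 were called higher at day 8 and 8 lower by limma, against 16.5% of all 564 names called higher and 48.2% called lower. Their median log2 change was -0.30, beside -0.34 for all names. With TMM factors 5 were called higher and 6 lower, against 30.3% and 34.2% of all names, with a median of 0.09. miR-124-3p and miR-217-5p did not pass the filter. The 8 let-7 names and miR-98-5p are of the same seed family, so the members do not count as independent.

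Of the 6 most abundant members 1 was called higher, 2 lower and the other 3 did not pass, and the tally depended on the scaling: with TMM factors 3 were called higher and 1 lower. miR-26a-5p, known to repress Ezh2 in muscle precursors, stood at 40330 ± 3110 CPM at day 8 and 46525 ± 6610 CPM at day 0 (SD, n = 6 each), a change of -0.20 on the log2 scale (limma adjusted p = 0.0765). let-7f-5p was at 59415 ± 2662 CPM at day 8 and 55291 ± 5827 CPM at day 0 (0.11, limma adjusted p = 0.169), and was called higher with TMM factors (0.50, limma adjusted p = 9.9e-05). let-7a-5p fell to 38495 ± 3617 CPM at day 8, against 46169 ± 2602 CPM at day 0 (-0.27, limma adjusted p = 0.00307), a direction that turned with TMM factors, to 0.12 with no call (limma adjusted p = 0.183). let-7c-5p rose to 38806 ± 3931 CPM at day 8, against 31560 ± 3287 CPM at day 0 (0.30, limma adjusted p = 0.00507). let-7i-5p fell to 22325 ± 860 CPM at day 8, against 34937 ± 2386 CPM at day 0 (-0.64, limma adjusted p = 1.7e-07). let-7g-5p was at 13720 ± 1559 CPM at day 8 and 12315 ± 1610 CPM at day 0 (0.16, limma adjusted p = 0.173), and was called higher with TMM factors (0.55, limma adjusted p = 0.000405).

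The other members are described by their log2 changes. miR-214-3p, a stromal miRNA also tied to Ezh2 in muscle, fell by 2.01, miR-137-3p by 1.24, miR-138-5p by 0.99, let-7e-5p by 0.70, let-7d-5p by 0.66 and miR-98-5p by 0.33, and miR-26b-5p rose by 0.32. Their limma adjusted p-values ran from 3.19e-07 (miR-214-3p) to 0.0209 (miR-98-5p). let-7b-5p had a change of 0.22 (limma adjusted p = 0.124). TMM factors put it at 0.61, called higher (limma adjusted p = 0.000357). The direction turned with TMM factors for miR-26a-5p (0.19), let-7a-5p (0.12) and miR-98-5p (0.06), each a small fall in CPM. Division by these factors raised the change of every name, so a rise, as of the miR-101 3p names, could not turn.

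**Figure D4:**
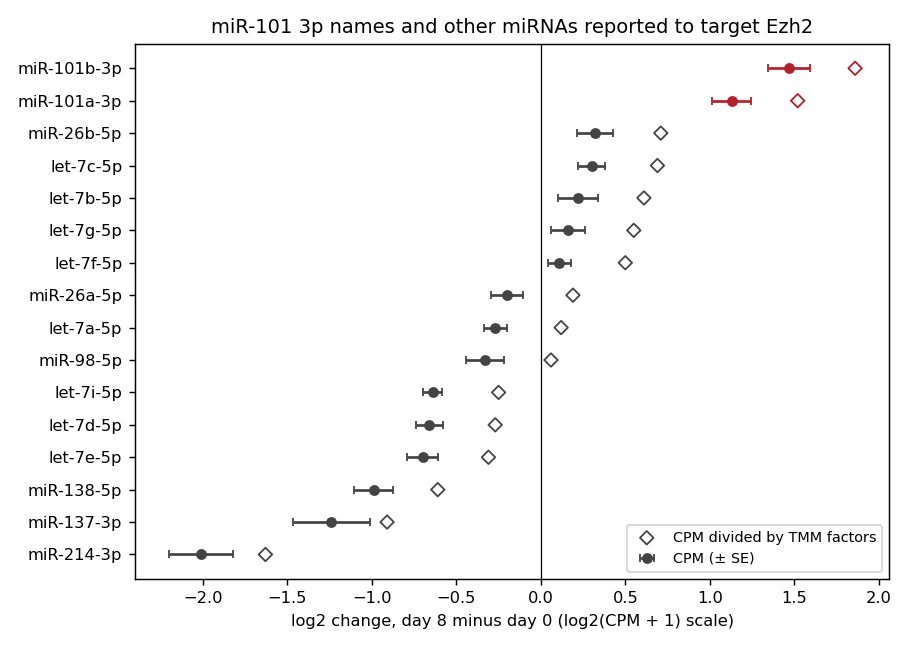
Log2 change, day 8 minus day 0, of the miR-101 3p names (red, top) and of the 14 tested miRNAs of the Ezh2 list (grey), as CPM with its SE (filled) and after division by TMM factors (open). The list spreads from -2.01 (miR-214-3p) to 0.32 (miR-26b-5p), below miR-101a-3p (1.13) and miR-101b-3p (1.47). The miR-101 names were chosen on this contrast, so their place above the list is not read as a result.

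The message letters that pair with the 3p seeds were looked up in 3′ UTRs, on the transcript strand, using the longest annotated 3′ UTR of each of 21037 protein-coding genes (GENCODE M21, GRCm38). The letters searched were GTACTGT for miR-101a-3p, TACTGTA for miR-101b-3p and AGTACTG for miR-101c, which overlap one another. The 402-base 3′ UTR of Ezh2 held GTACTGT 2 times, at bases 59 and 114 after the stop codon. It held TACTGTA 1 time, at base 115, and AGTACTG 2 times, at bases 58 and 113. Of the 1798 UTRs within 20% of that length, 2.73% held GTACTGT, 2.67% TACTGTA and 2.06% AGTACTG. Of all UTRs, 9.38% held GTACTGT, 12.2% TACTGTA and 8.71% AGTACTG.

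The stretches that carry the letters are shown 5′ to 3′, with the match to miR-101a-3p, or for Nr3c2 to miR-101b-3p, in capitals.
Ezh2, chr6:47530465-47530493, minus strand: aggaaccttgaGTACTGTgggcaatttag
Ezh2, chr6:47530410-47530438, minus strand: gaatttgcaaaGTACTGTaacagtaattt
Eed, chr7:89954768-89954796, minus strand: ttacattctttGTACTGTcttcctgctcg
Nr3c2, chr8:77243216-77243244, plus strand: gtgctgtacatTACTGTAtgtataaatcg
The second Ezh2 stretch carries the letters for all 3 registers, while the first carries those of miR-101a-3p and miR-101c and not those of the listed miR-101b-3p. Eed, another core subunit of the complex, held GTACTGT 1 time in 410 bases. The 2482-base 3′ UTR of Nr3c2, the MR gene, held TACTGTA 1 time, at base 697, and no GTACTGT. Of UTRs within 20% of its length, 22.0% held TACTGTA. None of the 3 words was found in the windows of Suz12, Ezh1, Jarid2 and Rbbp4, further genes of the complex. These are matches of letters, and no message was measured.

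**Figure D5:**
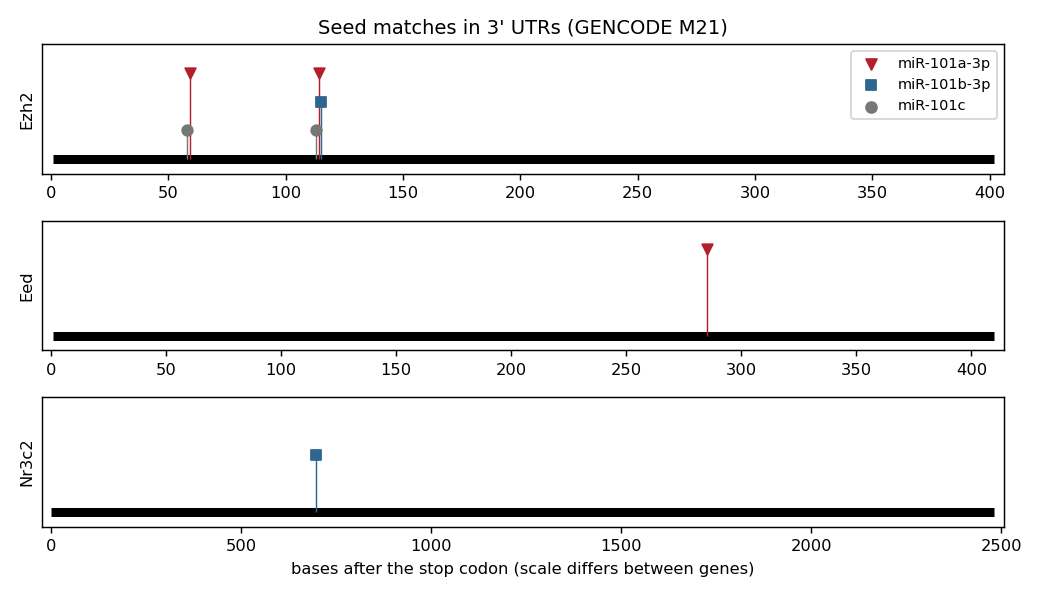
Positions of the seed matches of miR-101a-3p (triangles), miR-101b-3p (squares) and miR-101c (circles) in the 3′ UTRs of Ezh2, Eed and Nr3c2; the x axis is in bases after the stop codon, with its own scale for each gene. Ezh2 has matches near bases 59 and 114, of which the second is shared by all 3 names.

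Markers of other cells moved with age beside miR-101, and their counts stand beside 16.5% of all names called higher and 48.2% called lower. Of 7 kidney epithelium markers 6 were called higher at day 8 (limma). The other, the rare miR-215-5p, had a log2 change of -1.84 with no call (limma adjusted p = 0.0929). The summed level of all 7 ran from 58932 to 66153 CPM at day 8 and from 28138 to 32826 CPM at day 0. Epithelial miRNAs outside these 7 were mixed. miR-429-3p changed by 0.23 (limma adjusted p = 0.00423), and miR-141-3p by 0.25 with no call (limma adjusted p = 0.0804). miR-200c-3p changed by -0.29 (limma adjusted p = 0.0334), which was 0.09 with TMM factors. miR-205-5p changed by -1.53 (limma adjusted p = 2.83e-06). Both endothelial markers, the arms of miR-126a, were higher. Their sums ran from 120604 to 146671 CPM at day 8 and from 101241 to 115855 CPM at day 0. All 4 tested of 7 striated muscle markers were lower (3 with TMM factors, where miR-1a-3p at -0.50 had a limma adjusted p of 0.0781), with sums from 405.1 to 502.9 CPM at day 8 and from 499.1 to 1993 CPM at day 0. Both liver markers, the arms of miR-122, were lower, with sums from 15.19 to 332.7 CPM at day 8 and from 480.7 to 3296 CPM at day 0. Leukocyte markers had 3 of 6 higher and 1 lower (5 higher and 1 lower with TMM factors), with sums from 4662 to 6993 CPM at day 8 and from 3449 to 5649 CPM at day 0. The 3 erythroid markers with values, miR-144-3p among them, had limma adjusted p-values from 0.198 to 0.554. They summed to 410.9 to 840.4 CPM at day 8 and 332.5 to 970 CPM at day 0. No marker with values was at 0 in all libraries, and the part of any of these cells in the miR-101 values was not tested.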

How the data were processed

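Small RNA of kidney was sequenced in 12 libraries. Per the labels' protocols, a NucleoSpin miRNA kit yielded the RNA, and a QIAGEN QIAseq miRNA kit the libraries. The submitters' processing notes list FastQC. Aligner, build, miRBase release and any use of molecular identifiers: not given in the sources used here. The authors deposited 1 table in CPM, in which each library sums to 1000000. Within a library, 100% of values were whole multiples of 1 read within 0.001 of a read, which gave back the read numbers. No 2 libraries of an age agreed within sampling noise (lowest chi-square per degree of freedom 29.6).

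limma 3.58.1 (R 4.3.3) was fitted with a mean-variance trend to log2(CPM + 1) of the 564 names with at least 1 CPM in at least 6 libraries, with Benjamini-Hochberg adjustment over all of them and a threshold of 0.05. The fit was tested on simulated data with as many names shifted up as down. That test therefore did not cover a shift in the bulk of names between the ages. Its log2 changes and SE describe the miR-101 names, with no p. Alternatives were CPM divided by TMM factors, edgeR 4.0.16 and DESeq2 1.42.0 on the recovered reads, pseudocounts of 0.1 and 5, other filters and each library left out. edgeR with TMM called 173 names higher on those reads. Sequences are from RefSeq tables of GRCm38.p6, in which 1409 of 1652 names matched, and 3′ UTRs were taken from GENCODE M21 transcripts. The members, lists and rules were chosen with earlier results of these data known. Named miRNAs are the members, the Ezh2 list (values for the 6 most abundant), seed relatives, rank neighbours and the 5 names most like each 3p name. Cell markers, and epithelial names outside their list, are named as well. The erythroid markers miR-486a-5p and miR-486b-5p were not analysed here.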

Additional observations from a re-analysis of the deposited data

Results flagged for a closer look

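One result was marked because a single library lay far from the others of its age. miR-101a-5p in day 8 replicate 4 was at 3.26 CPM, below the other 5 day 8 libraries, with a gap to the next that was 0.696 of the whole day 8 range, above Dixon's 95% critical value for 6 libraries. It rested on 38 reads. Of 18 sets of values tested this way 1 was marked, and chance marks about 1 in 20. The same library was the lowest of its age for miR-101a-3p and miR-101b-3p.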

How the results depend on the processing

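The log2 change of miR-101a-3p (1.13) was 1.52 with TMM factors, 1.54 with edgeR and TMM, and 1.58 with edgeR and RLE or with DESeq2. That of miR-101b-3p (1.47) was 1.86, 1.88, 1.92 and 1.92 in the same order, and that of miR-101a-5p (0.58) was 0.88, 1.12, 1.16 and 1.17, and 0.31 with a pseudocount of 5. The summed 3p names changed by 1.16, and by 1.55 with TMM factors. Without any one library the change ran from 1.06 to 1.19 for miR-101a-3p, from 1.41 to 1.55 for miR-101b-3p, from 0.50 to 0.66 for miR-101a-5p and from -0.27 to -0.04 for miR-101b-5p. The arm ratio moved with the pseudocount (0.1, then 5), as it must for rare 5p arms. For miR-101a it was 8.74 and 7.71 at day 8 and 8.34 and 6.90 at day 0. For miR-101b it was 7.87 and 5.24 at day 8 and 6.11 and 3.75 at day 0. The log2 ratio of miR-101b-3p to miR-101a-3p ran from -3.25 to -3.19 at day 8 and from -3.60 to -3.53 at day 0 without any one library, where 5 libraries cannot pass 0.05. The within-age r was 0.71 at day 8 without 2 libraries, and 0.83 at day 0 with TMM factors, where it passed. Over all names 93 were called higher, and 171 with TMM factors, 173 with edgeR and TMM, 177 with edgeR and RLE and 180 with DESeq2. Of the Ezh2 list, 5 were called higher under each of the first 3 and 6 by DESeq2, and 5 lower by edgeR with RLE or DESeq2. With TMM factors, edgeR and TMM, edgeR and RLE, and DESeq2 the direction turned for miR-26a-5p (0.19, 0.18, 0.22, 0.22), miR-98-5p (0.06, 0.06, 0.10, 0.10), let-7a-5p (0.12, 0.13, 0.16, 0.16) and miR-139-5p (0.21, 0.24, 0.26, 0.26). The TMM factors were below 1 in every day 8 library and above 1 in every day 0 library. They therefore raised day 8 relative to day 0 for every name. Without any one library, 89 to 98 names were called higher and 254 to 281 lower, and of the Ezh2 list 2 to 3 higher and 8 to 9 lower. let-7f-5p and miR-26a-5p passed without day 0 replicate 1 (0.15 and -0.27), and let-7b-5p without day 8 replicate 2 (0.29). Adding miR-101c to miR-101a-3p was not run, as it has no values here. No paired analysis was possible because the sources used here give no litter or other link between day 0 and day 8 libraries.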
